A study of Populus ussuriensis with 8 samples.

Results

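Genes whose transcripts fell at least 4-fold between 0.5 h and 1 h after cutting were examined in the poplar Populus ussuriensis, at the cut base of its stem cuttings. In 8 RNA-seq libraries the values listed per transcript were summed to genes, and 24347 of the 36385 genes listed reached 1 FPKM (a level scaled for transcript length and for library size; the files do not name the unit, which was inferred from the values) in at least 2 libraries. A gene was a member where its mean log2(FPKM + 1) over the 4 libraries of 1 h lay at least 2 below that over the 4 libraries of 0.5 h, with no overlap between the times. The 99 genes that met this rule, 0.407% of those tested, were thus chosen by their measured change between the times, and that change is given as a description without a test.

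The libraries form 4 groups of 2, which are cuttings kept with 1 µM methyl jasmonate (MeJA) in the medium and harvested at 1 h or at 0.5 h, and cuttings without treatment harvested at 1 h or at 0.5 h. All came from plants grown in vitro, and RNA was taken from the basal ends of the stem pieces. The labels contradict each other on the age of the source plants. Nothing says that replicates are separate cultures, and p-values therefore reflect only how far these libraries spread, possibly for technical reasons. No library from before cutting was analysed here.

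Cutting a stem wounds it, and wounding is known in plants to switch on a wave of early genes within minutes, many of which encode regulators and defence proteins with short-lived transcripts. The level of a transcript is set by its synthesis and its decay, and a measured level does not separate them. Jasmonates are the main wound hormones of plants. The conjugate jasmonoyl-isoleucine brings the receptor COI1 together with JAZ repressors, which are then degraded and release transcription factors such as MYC2. At the base of a cutting the wound response comes before the formation of adventitious roots, which arise from stem tissue and not from a root.

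Each library has a single time and treatment, and the labels name no batch, so an unrecorded batch cannot be told apart from either. The files do not pair the Potri identifiers with gene names, so no member is given a function, the labelled tissue was not checked against its markers, and at most 2 members per direction are named in each comparison, besides the ends of stretches of neighbouring genes. Summed values per library lay between 549538 and 577002 FPKM. Relative depth, read from the steps between low values of single-isoform genes, was 0.936 to 0.996 times that of untreated 0.5 h replicate 1 in the other 7 libraries. Over all genes tested the median change between the times was -0.17 on the log2(FPKM + 1) scale, so the members' falls stand against a downward shift of that size.

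The members together went down to a small part of their 0.5 h signal. In the MeJA libraries of 1 h their summed level was 1053 and 1180.2 FPKM, and in the untreated libraries of 1 h it was 1051 and 934 FPKM. In the MeJA libraries of 0.5 h it was 5087 and 5321 FPKM, and in the untreated libraries of 0.5 h it was 5918 and 5688 FPKM. The 99 genes thus held 0.166% to 0.208% of the signal in each library of 1 h, against 0.887% to 1.08% in each library of 0.5 h. In such tissue samples, fewer cells of a type that uses these genes and less RNA per cell cannot be told apart.

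The median member stood at 5.0 FPKM at 1 h, with a range of 0.285 to 69.4 FPKM, and at 29.2 FPKM at 0.5 h, with a range of 4.41 to 319 FPKM. Across all genes tested the medians were 7.2 FPKM at 1 h and 8.26 FPKM at 0.5 h. At 0.5 h the members were therefore mostly well expressed, and 84 of them had a mean of at least 10 FPKM and 15 of at least 100 FPKM. At 1 h 72 were under 10 FPKM and 14 under 1 FPKM. The rule itself keeps out genes that started low, because the log2(FPKM + 1) scale compresses falls towards 0. In FPKM, the level at 1 h was 1.78% to 23.9% of that at 0.5 h, with a median of 17.3%. For 13 members less than 10% was left.

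**Figure D1:**
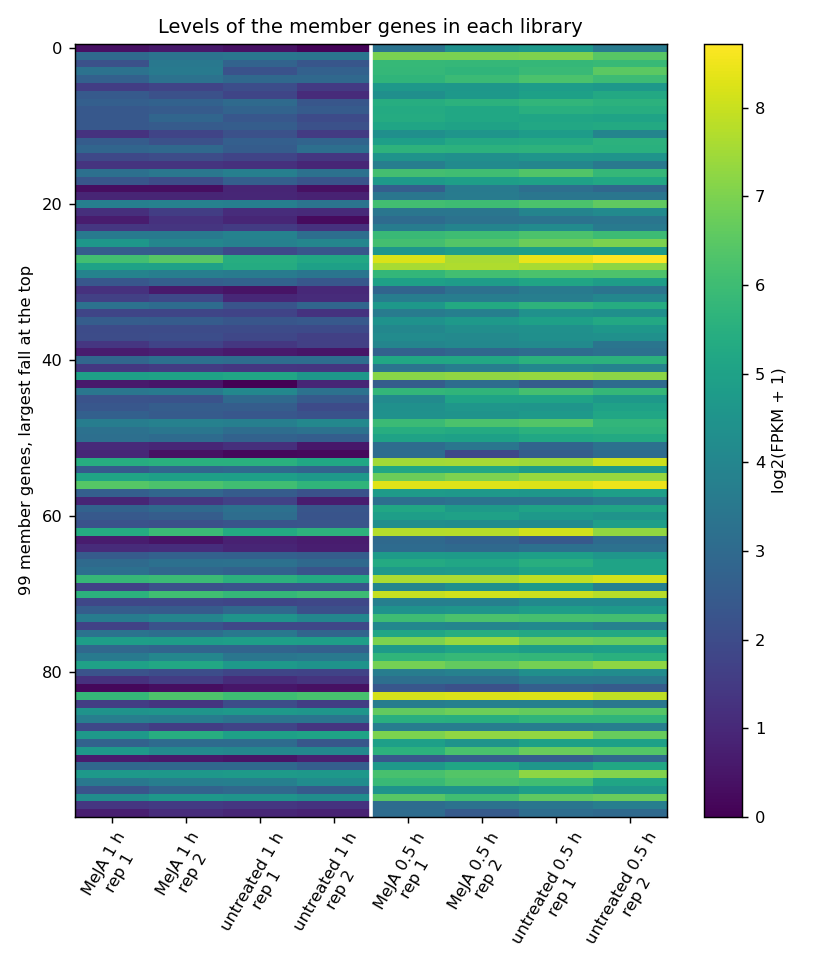
Level of each of the 99 members (rows, largest fall at the top) in each of the 8 libraries (columns), as log2(FPKM + 1) on the colour scale. The 4 libraries of 1 h, left of the white line, are darker in every row than the 4 of 0.5 h, as the rule requires.

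**Figure D2:**
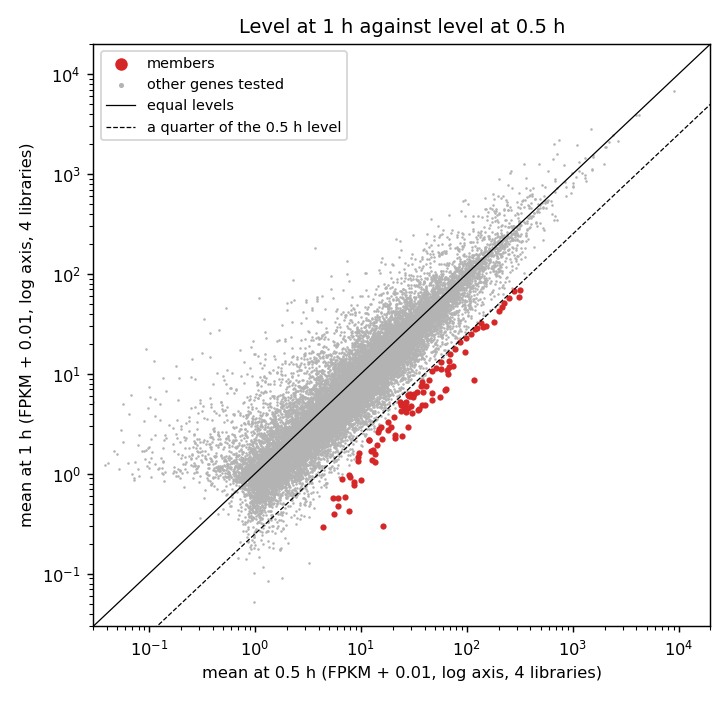
Mean level at 1 h (vertical) against mean level at 0.5 h (horizontal) over 4 libraries each, in FPKM with 0.01 added, on log axes. The 99 members (red) lie below the dashed line of a 4-fold fall, and grey genes below that line did not reach a change of -2 on the log2(FPKM + 1) scale or overlapped between the times.

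The change between the times ranged from -3.65 to -2.0 on the log2(FPKM + 1) scale, with a median of -2.23. Only 5 members fell by at least 3 and 22 by at least 2.5, so 77 lay within 0.5 of the threshold. The gap between the highest library of 1 h and the lowest of 0.5 h was 0.91 to 3.04 (log2), with a median of 1.77, and exceeded 1 in 96 members.

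Potri.015G101500, on chromosome 15, showed the largest fall. It stood at 0.317 and 0.474 FPKM in the MeJA libraries of 1 h, and at 0.307 and 0.0545 FPKM in the untreated libraries of 1 h. In the libraries of 0.5 h its level was 9.04 and 19.5 FPKM with MeJA, against 24.7 and 11.5 FPKM without. Each treatment had 1 high and 1 low library at 0.5 h, and all 4 were far above every library of 1 h.

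Potri.001G092900, on chromosome 1, came next, from a higher level. At 1 h it stood at 7.17 and 9.04 FPKM with MeJA, against 9.66 and 9.15 FPKM without. At 0.5 h it stood at 124 FPKM in both MeJA libraries, against 129.7 and 86.9 FPKM in the untreated ones. The log2 changes of these genes were -3.65 and -3.58.

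The members with the highest level at 0.5 h were Potri.008G203400 on chromosome 8, with 7 isoforms, and Potri.007G008500 on chromosome 7, with 5. Potri.008G203400 stood at 85.7 and 75.3 FPKM with MeJA and 65.2 and 51.5 FPKM without at 1 h. The values of 0.5 h were 309.9 and 315 FPKM with MeJA and 305 and 348 FPKM without. The treatments overlapped at 0.5 h but not at 1 h. The values of Potri.007G008500 are given with the MeJA comparisons.

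The threshold cut through a continuous range. Just inside it, Potri.004G221200 had a mean of 0.878 FPKM at 1 h and 6.61 FPKM at 0.5 h, a change of -2.0, and Potri.010G080600 was at 1.58 and 1.82 FPKM with MeJA and 1.57 and 1.44 FPKM without at 1 h, against 7.52 to 12.3 FPKM in the libraries of 0.5 h. Just outside, Potri.014G148500 had a change of -1.99, with 2.72 and 2.96 FPKM with MeJA and 1.48 and 1.53 FPKM without at 1 h, against 9.69 to 12.5 FPKM at 0.5 h. Potri.006G040800 also had a change of -1.99 and stood at 4.15 to 5.06 FPKM at 1 h, against 19.2 to 25.9 FPKM at 0.5 h. The threshold thus separates genes with almost the same change.

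Of the 99 members, 58 were listed with a single isoform (58.6%), 26 with 2 or 3 (26.3%) and 15 with 4 or more (15.2%). Among all genes tested the shares were 51.1%, 33.5% and 15.4%. The 41 members with several isoforms had 139 in all, and 135 of these reached a mean of 1 FPKM at either time. All 135 were lower in every library of 1 h than in every library of 0.5 h. Their level at 1 h was 5.51% to 27.5% of that at 0.5 h, with a median of 19.3%. Isoforms add up to the gene totals that the rule chose, and all 135 reached the 1 FPKM at 0.5 h. Their fall therefore follows in large part from the choice of genes and is only described. Values of isoforms are also estimates, and isoforms of 1 gene share reads.

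The leading isoform was the same at both times in 38 of the 41 genes. Its share of the gene had a median of 43.6% at 1 h and 46.8% at 0.5 h, and it moved by at most 5 percentage points in 37 genes. In no gene (0 of 41) did the leading isoform's shares at 1 h stand clear of all those at 0.5 h. Among all 139 isoforms, 4 minor ones of 3 genes did, 2 with a larger and 2 with a smaller share at 1 h. Such counts were not made over the isoforms of all genes, so these are not read as results about the members. In Potri.009G047700, isoform 3 held 19.2% ± 2.5 at 1 h and 15.4% ± 0.70 at 0.5 h, while isoform 2 held 14.1% ± 1.2 at 1 h and 18.0% ± 1.1 at 0.5 h (SD, n = 4 per time). The others were isoform 5 of Potri.004G108300, with 9.42% at 1 h and 12.3% at 0.5 h, and isoform 7 of Potri.005G106400, with 7.26% at 1 h and 5.47% at 0.5 h. These 3 genes were named after their values were seen. With 2 isoforms listed, the leading one held 51.3% to 74.0% at 1 h and 51.4% to 76.7% at 0.5 h in 16 genes. With 5 listed it held 21.6% to 36.9% at 1 h and 21.2% to 38.1% at 0.5 h in 6 genes, so values were spread over many isoforms.

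The largest shifts were in 2 genes of low level at 1 h. Isoform 2 of Potri.006G143800 held 47.0% and 72.1% of the gene with MeJA and 64.7% and 67.4% without at 1 h, against 77.3% and 79.4% with MeJA and 81.0% and 68.2% without at 0.5 h. The gene total at 1 h was only 0.611 to 2.29 FPKM, and the shares of the times overlap. Isoform 1 of Potri.004G181900 held 73.5% and 56.4% with MeJA and 65.0% and 74.7% without at 1 h, against 58.0% in both MeJA libraries and 59.1% and 53.9% in the untreated ones at 0.5 h. Here too 1 library of 1 h lay within the range of 0.5 h.

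Several members stand next to each other in the numbering of the identifiers, which follows the order of genes along each chromosome. With at most 10 steps between neighbours, a window chosen after the positions were seen, 18 members fell into 7 stretches and 81 stood alone. Of the 18, 5 had another member as the very next identifier. Such stretches were not counted for other sets of genes, so these counts are not read as results about the members. Near-identical neighbours can share reads, and this was not resolved here.

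On chromosome 5, the 3 consecutive identifiers Potri.005G163500 to Potri.005G163700 were all members and all abundant. Potri.005G163500 stood at 55.0 and 77.8 FPKM with MeJA and 63.5 and 71.5 FPKM without at 1 h, and at 286 and 301 FPKM with MeJA and 304 and 235 FPKM without at 0.5 h. Potri.005G163700 stood at 47.6 and 64.4 FPKM with MeJA and 55.2 and 61.5 FPKM without at 1 h, and at 244 and 271 FPKM with MeJA and 258 and 220.2 FPKM without at 0.5 h. Potri.005G163500 stood at 1.15 to 1.21 times the level of Potri.005G163700 in the libraries of 1 h. In those of 0.5 h it was 1.07 to 1.18 times. Both genes were chosen by their fall, so similar ratios at the times follow in large part from the rule. Among the pairs of neighbouring members compared, this ratio varied least. That of Potri.004G220700 to Potri.004G220400, on chromosome 4, was 0.815 to 1.64 at 1 h and 1.38 to 1.81 at 0.5 h. Potri.005G163600 between them ran lower, with means of 32.2 FPKM at 1 h and 135 FPKM at 0.5 h. The changes of the 3 genes were -2.06, -2.04 and -2.11 in the order of the identifiers.

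A further stretch on chromosome 5, Potri.005G056700 to Potri.005G057000, held 3 members among 4 identifiers. The remaining one, Potri.005G056900, was under the filter, at a mean of 0.0906 FPKM at 1 h and 0.0365 FPKM at 0.5 h. Potri.005G056800 led with 7.09 and 8.21 FPKM with MeJA and 8.44 and 6.86 FPKM without at 1 h, and with 38.8 and 34.5 FPKM with MeJA and 42.9 and 32.5 FPKM without at 0.5 h. The changes of the 3 members were -2.15, -2.14 and -2.09. Changes this alike are common under the rule, since 77 of the 99 members fell by less than 2.5.

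The longest stretch, Potri.004G220400 to Potri.004G221200 on chromosome 4, held 4 members among 9 identifiers, and here members alternated with genes that did not fall 4-fold. Potri.004G220700, with the largest fall of the 4, stood at 3.5 and 10.1 FPKM with MeJA and 5.81 and 3.99 FPKM without at 1 h. The values of 0.5 h were 56.1 and 55.5 FPKM with MeJA and 54.8 and 58.4 FPKM without. Its neighbour Potri.004G220900 had means of 15.9 FPKM at 1 h and 30.9 FPKM at 0.5 h, a change of -0.92. Potri.004G220500 stood at 5.81 FPKM at 1 h and 5.35 FPKM at 0.5 h. Members and non-members of this stretch were thus interleaved.

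**Figure D3:**
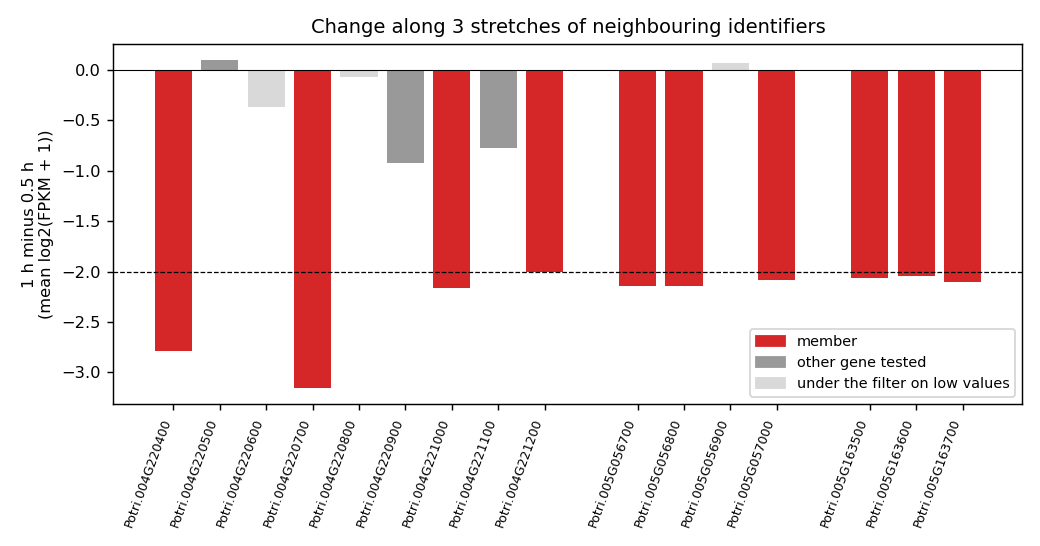
Change between the times (mean log2(FPKM + 1) at 1 h minus 0.5 h) for each listed identifier in 3 stretches on chromosomes 4 and 5, with members in red, other tested genes in grey and genes under the filter in light grey. The dashed line marks the threshold of -2, which 4 of 9, 3 of 4 and 3 of 3 identifiers reach.

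Members were found on each of the 17 chromosomes listed. Chromosome 4 and chromosome 5 had 14 each, 0.95% and 0.789% of their tested genes, while chromosome 17, listed only in part, had 1 (0.125%) and chromosome 14 had 2 (0.147%). The stretches above supply 4 of the 14 on chromosome 4 and 6 of the 14 on chromosome 5.

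The members' levels were lower at 1 h in both treatments. The median change was -2.12 with MeJA and -2.45 without, against -0.15 and -0.19 over all genes tested. The level left at 1 h had a median of 19.1% with MeJA, in a range of 2.77% to 33.8%, and of 14.4% without, in a range of 1.0% to 30.6%. Over all genes tested with a level above 0 at 0.5 h the medians were 88.1% with MeJA and 85.2% without. More was left with MeJA in 69 of the 99 members (69.7%), against 57.6% of all genes. Without untreated 1 h replicate 2 the count was 59, against 54.9% of all genes, and the members' median without MeJA was 16.1%. The rule did not use the MeJA contrasts, but it used the values of all 8 libraries. Its demand of no overlap limits how far the libraries of a time can spread. The median difference between replicates was 0.17 to 0.27 (log2) in the 4 groups for the members and 0.13 to 0.17 for all genes tested.

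Whether MeJA altered the members 0.5 h after cutting was tested in limma on all 24347 genes. Most members were somewhat lower with MeJA, but no single one passed. At an adjusted p of 0.05 the count was 0 of 99, and 0% of all genes tested. At an unadjusted p under 0.05, 26 members (26.3%) were lower with MeJA and 2 (2.02%) higher, against 4.34% and 3.46% of all genes tested. The MeJA libraries lay wholly below the untreated ones in 47 members (47.5%) and wholly above in 5 (5.05%), against 22.6% and 13.8% of all genes tested. The median log2 difference of the members was -0.20, against -0.03 over all genes, and in sign 70 members (70.7%) were lower and 29 (29.3%) higher, against 57.1% and 42.9% of all genes. Here and below, the shares of all genes are not matched for level. The median level at 0.5 h was 29.2 FPKM for the members and 8.26 FPKM over all genes tested.

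Potri.003G038500, on chromosome 3, had the smallest p of the members at 0.5 h. Its level was 71.5 and 81.9 FPKM with MeJA, against 149 and 134 FPKM without, a log2 difference of -0.87 ± 0.11 (SE, n = 2 per group; limma adjusted p = 0.16). At 1 h it was at 25.6 and 23.8 FPKM with MeJA and 25.9 and 24.0 FPKM without. The groups were clear of each other at 0.5 h and overlapped at 1 h.

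Potri.015G006100, on chromosome 15, had 11.4 and 12.6 FPKM with MeJA, against 20.1 and 19.5 FPKM without at 0.5 h, a log2 difference of -0.68 ± 0.16 (SE, n = 2 per group; limma adjusted p = 0.43). At 1 h it was at 2.5 and 2.52 FPKM with MeJA and 2.38 and 1.44 FPKM without. The groups did not overlap at either time, with MeJA above at 1 h and below at 0.5 h.

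At 1 h the direction was the other way, with a smaller shift. No member passed in limma (0 of 99, and 0% of all genes tested). At an unadjusted p under 0.05, 18 members (18.2%) were higher with MeJA and 2 (2.02%) lower, against 3.92% and 2.01% of all genes tested. The MeJA libraries lay wholly above the untreated ones in 36 members (36.4%) and wholly below in 12 (12.1%), against 20.3% and 15.7% of all genes. The median log2 difference was 0.09, against 0.01 over all genes. In sign 66 members (66.7%) were higher and 33 (33.3%) lower, against 53.9% and 46.1% of all genes. This shift rested largely on untreated 1 h replicate 2, the lowest of the 4 libraries of 1 h in 49 members. Without it, 51 of 99 members were higher with MeJA, against 49.6% of all genes, and the median difference was 0.0049. Without MeJA 1 h replicate 2, the highest in 37 members, the count was 56, against 54.7% of all genes, and the median was 0.04. As a share of each library's signal, the members held 0.187% and 0.208% with MeJA and 0.188% and 0.166% without, and these overlap.

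Potri.004G015100, on chromosome 4, had the smallest p of the members at 1 h. Its level was 2.18 and 2.67 FPKM with MeJA, against 0.964 and 1.1 FPKM without, a log2 difference of 0.75 ± 0.15 (SE, n = 2 per group; limma adjusted p = 0.50). At 0.5 h it stood at 12.1 and 11.9 FPKM with MeJA and 12.4 and 15.5 FPKM without. MeJA was thus above untreated at 1 h and below it at 0.5 h, without overlap.

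Potri.007G008500 was the next at 1 h, and is among the most abundant members. Its level was 67.2 and 87.7 FPKM with MeJA, against 42.5 and 36.5 FPKM without at 1 h, a log2 difference of 0.95 ± 0.21 (SE, n = 2 per group; limma adjusted p = 0.58). At 0.5 h it stood at 299 and 195 FPKM with MeJA and 347 and 421 FPKM without, a log2 difference of -0.66 ± 0.21 (SE, n = 2 per group; limma adjusted p = 0.52). With MeJA the level was lower at 0.5 h and higher at 1 h, with no overlap at either time.

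**Figure D4:**
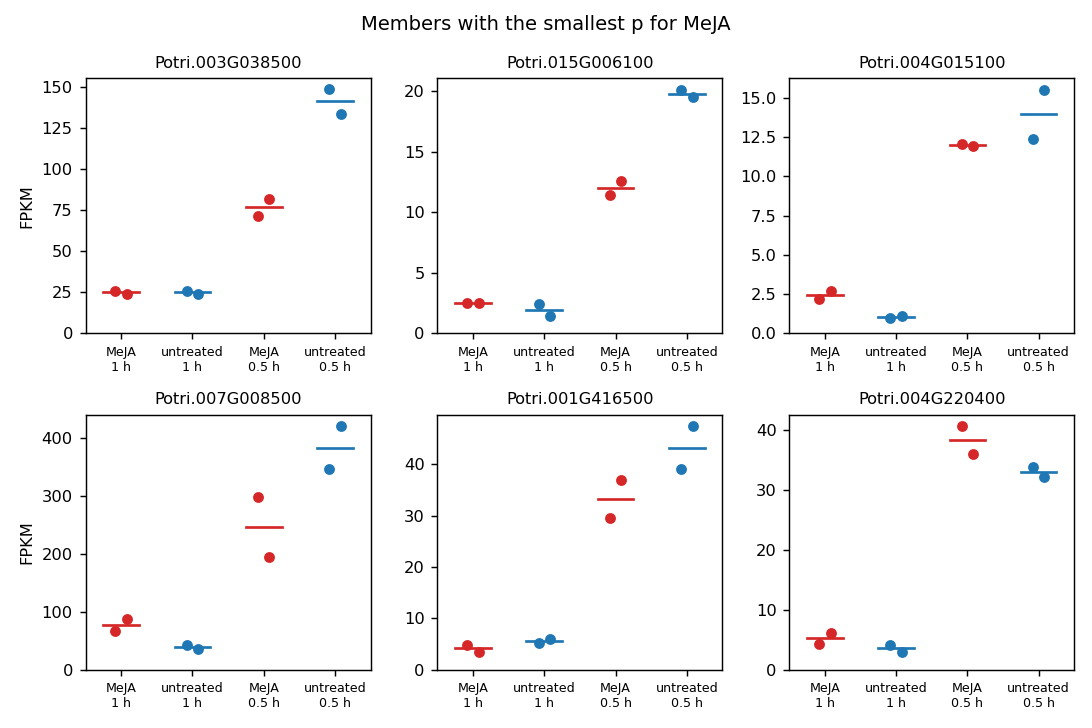
FPKM per library (points) and group mean (lines) of 6 members named for the MeJA tests, with MeJA in red and untreated in blue and n = 2 per group. MeJA points lie below the untreated ones at 0.5 h in all but Potri.004G220400, and none of these differences passed the adjusted test.

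Over both times together no member passed in limma (0 of 99, and 0% of all genes tested), and 5 members were lower and 1 higher at an unadjusted p under 0.05, which is 5.05% and 1.01%, against 1.82% and 1.83% of all genes. In 0 members did all 4 MeJA libraries lie above all 4 untreated ones or below them, against 0.292% and 0.366% of all genes. The rule itself fixed this 0, since in each member every library of 1 h lay below every library of 0.5 h. The comparison with all genes therefore says nothing about MeJA. The members of smallest p were Potri.001G416500 and Potri.003G038500 on the lower side and Potri.004G220400 on the higher side. Potri.001G416500, on chromosome 1, stood at 4.8 and 3.52 FPKM with MeJA and 5.3 and 5.94 FPKM without at 1 h, and at 29.5 and 36.9 FPKM with MeJA and 39.0 and 47.4 FPKM without at 0.5 h, a log2 difference of -0.37 ± 0.11 (SE) over both times. Potri.004G220400, the first gene of the stretch on chromosome 4, stood at 4.3 and 6.18 FPKM with MeJA and 4.17 and 2.96 FPKM without at 1 h. The values of 0.5 h were 40.6 and 36.0 FPKM with MeJA and 33.8 and 32.2 FPKM without.

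The interaction, the MeJA difference at 1 h minus that at 0.5 h, asks whether the fall itself depended on MeJA. No member passed in limma (0 of 99, and 0% of all genes tested). At an unadjusted p under 0.05 the fall was smaller with MeJA in 32 members (32.3%) and larger in 2 (2.02%), against 5.87% and 3.45% of all genes. The median was 0.24 for the members and 0.05 for all genes, and in sign 76 members (76.8%) had a smaller fall with MeJA and 23 (23.2%) a larger one, against 57.4% and 42.6% of all genes. Without untreated 1 h replicate 2 the sign count of 76 went down to 58, against 54.3% of all genes. Potri.007G008500 had a value of 1.61 ± 0.29 and Potri.003G038500 of 0.86 ± 0.16 (SE, n = 2 per group; limma adjusted p = 0.22 for both). In 26 members (26.3%) the MeJA libraries were wholly lower at 0.5 h and wholly higher at 1 h, against 6.2% of all genes, and the reverse was seen in 0 members, against 3.2%. The interaction is built from the same libraries as the differences at each time and adds no separate evidence.

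Values of this kind were also seen outside the members. Among 1226 genes that fell by 1 to 2 (log2) with no overlap, the median MeJA difference was 0.09 at 1 h and -0.14 at 0.5 h. Among 249 genes that rose by at least 2 with no overlap it was -0.06 at 1 h and 0.17 at 0.5 h. At 0.5 h the MeJA libraries lay wholly below the untreated ones in 39.9% of the first group, against 22.6% of all genes, and wholly above in 35.3% of the second, against 13.8%. At 1 h they lay wholly above in 31.2% of the first group, against 20.3% of all genes, and wholly below in 18.5% of the second, close to the 15.7% of all genes. Among 958 genes that rose by 1 to 2 with no overlap, they lay wholly below in 24.6% at 1 h and wholly above in 26.5% at 0.5 h. The differences between these groups of genes were not tested.

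**Figure D5:**
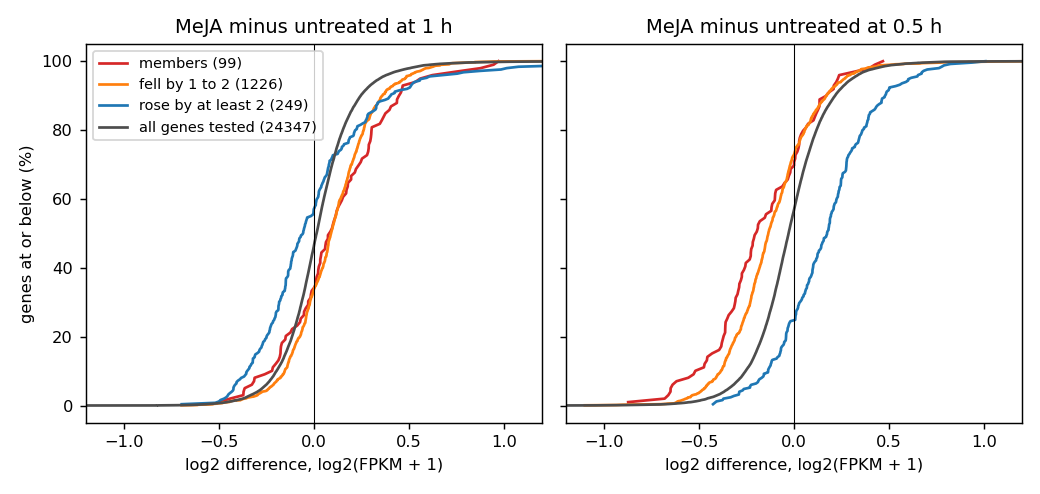
Cumulative share of genes (vertical, %) by MeJA minus untreated log2 difference (horizontal) at 1 h (left) and 0.5 h (right), for the 99 members (red), genes that fell by 1 to 2 (orange), genes that rose by at least 2 (blue) and all genes tested (dark grey). At 0.5 h the members' median is -0.20 and that of the rising genes 0.17, while at 1 h the medians are 0.09 and -0.06.

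Isoform shares of the members were also set against MeJA over both times, for isoforms with a mean share of 10% to 90% in genes of at least 5 FPKM. Of 120 isoforms of 38 members, 0 passed in limma on the log2 odds of the share, and 0% of the 28608 isoforms tested in all. At an unadjusted p under 0.05 there were 10 (8.33%), against 4.99% of all isoforms. Isoforms of 1 gene are not independent, since their shares sum to the whole.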

How the data were processed

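The authors deposited a table of transcript values for every library. Neither the file headers nor the labels name the unit. It was read as FPKM as deposited by the authors, because the values are not whole, not on a log scale, and differ in their sum between libraries. TPM over a longer list was not excluded by this. Per the submitters' processing notes, the tools included HISAT2 2.1.0 and Bowtie2 2.2.3. What each did, which tool quantified the transcripts, the genome build and whether strand was used was not given in the sources used here. The tables hold 65535 transcripts each and end within chromosome 17; later identifiers were not analysed here.

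Transcripts were summed to genes, genes reaching 1 FPKM in 2 or more libraries were kept, and log2(FPKM + 1) was modelled with limma 3.58.1 in R 4.3.3, using a mean-variance trend and robust moderation, as 4 group means, or additively for both times. Benjamini-Hochberg adjustment ran over all genes tested, with calls at an adjusted p of 0.05. Fold changes on this scale understate the change of low genes. Isoform shares were fitted as log2 odds with a pseudocount of 0.5 FPKM. The fits were tested on simulated data. The changes planted for genes were larger than the members' median MeJA differences. Whether differences of that size would be found was not tested. The members, lists and tests were chosen with earlier results of these data known. Named genes are those of largest fall, highest level, nearest the threshold, smallest p per MeJA contrast or largest isoform shift, at most 2 per direction each because the identifiers carry no names. Planned gene lists and promoter motifs were not run for the same reason. Alternatives were other scalings, pseudocounts, filters, thresholds and priors, a replicate block and leaving out each library.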

Additional observations from a re-analysis of the deposited data

Results flagged for a closer look

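The following values are those among the members named for their fall, level, threshold, MeJA p or leading isoform, and the sum over the members, in which every MeJA library lay below every untreated library at 0.5 h and above every untreated library at 1 h. The same held in 26 of the 99 members and in 6.2% of all genes tested, and only 5 are listed. The difference between the times was tested for single genes as the interaction in limma, and none passed. For Potri.007G008500 it was 1.61 (limma adjusted p = 0.22), for Potri.015G006100 0.97 (limma adjusted p = 0.26) and for Potri.004G015100 0.95 (limma adjusted p = 0.24). For Potri.010G080600, just inside the threshold, it was 0.50 (limma adjusted p = 0.51), and for Potri.004G181900 0.48 (limma adjusted p = 0.48).

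The summed FPKM of the 99 members showed the same order. The MeJA difference at 1 h minus that at 0.5 h was 723.3 FPKM. This sum was not tested, and at 1 h the lowest MeJA library (1053 FPKM) and the highest untreated one (1051 FPKM) were close. As a share of each library's signal the treatments overlapped at 1 h, with 0.187% and 0.208% with MeJA and 0.188% and 0.166% without.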

How the results depend on the processing

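The number of members depends on how the fall is scaled. It was 99 as reported, 77 after quantile normalization and 62 after median centring, and all of these were among the 99. A pseudocount of 0.1, which compresses falls of low genes less, gave 263 and kept the 99. Thresholds of -1.5 and -2.5 gave 349 and 22. With any single library left out it was 88 to 109. The counts of members called for MeJA were 0 at each time, over both times, for the interaction and for isoform shares in each alternative run. Leaving out each library gave median MeJA differences of -0.20 to -0.17 at 0.5 h and 0.0049 to 0.20 at 1 h. The members lower with MeJA at 0.5 h were then 65 to 78, those higher at 1 h 51 to 74, and those with a smaller fall 58 to 79. Over all genes tested the shares with all libraries were 57.1%, 53.9% and 57.4%, and they also moved when a library was left out. Members with more left with MeJA were 59 to 77 without 1 library of 1 h, against 54.9% to 59.8% of all genes. The sign counts, this count and their alternatives were chosen after seeing the data. After median centring the sign counts were 65, 57 and 66. The shares of all genes under that scaling are not given here, so these counts are not read as results about the members. Where 1 library of a group was left, it was assumed to vary like the other groups.

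The groups share replicate numbers, and the correlations of same-numbered deviations across genes were -0.12 to 0.03. These showed no strong shift common to libraries of 1 number, but cannot exclude that the numbers mark pairs. With the replicate block 0 members were called in each MeJA test. Absolute depth is unknown, so levels under about 1 FPKM carry an error that was not measured.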

Other observations

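The remaining 4 stretches of neighbouring members had 2 members each. The genes named in this paragraph were chosen after their values were seen. On chromosome 1, Potri.001G403000 stood at 33.7 and 29.9 FPKM with MeJA and 29.3 and 24.6 FPKM without at 1 h, and at 108 and 128 FPKM with MeJA and 164 and 164 FPKM without at 0.5 h. Potri.001G403300, 3 identifiers on, stood at 12.6 and 13.4 FPKM with MeJA and 12.5 and 9.2 FPKM without at 1 h, and at 66.6 and 64.2 FPKM with MeJA and 75.2 and 94.4 FPKM without at 0.5 h. Both were lower with MeJA in each library of 0.5 h. Potri.001G403100 between them stood at means of 23.4 FPKM at 1 h and 25.8 FPKM at 0.5 h, a change of only -0.13.

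On chromosome 6, Potri.006G144000 lies between 2 members and stood at means of 47.8 FPKM at 1 h and 120.2 FPKM at 0.5 h, a change of -1.3 that missed the threshold. Replicates lay over 1 (log2) apart in 2 members for MeJA at 0.5 h and in 1 member in each of the other 3 groups. A value of exactly 0 was listed for 1 member in 1 library.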
